A study of Mus musculus with 4 samples.

Results

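S100a6-positive Cd4 T cells of mouse blood were described here as cells with at least 2 UMIs over Cd3d, Cd3e and Cd3g, at least 1 of Cd4, at least 1 of S100a6, 0 of Cd8a, Cd8b1 and Foxp3, at most 2 of Cd79a and at most 4 of Lyz2. A UMI is a molecular tag that counts 1 captured RNA molecule. Of 14588 blood cells, 159 met these limits. The young pools held 42 and 54 of them and the old pools 43 and 20. The comparison group was the 323 Cd4 T cells with 0 S100a6 UMIs under the same limits, called S100a6-zero cells, with 188 and 117 from young pools and 8 and 10 from old ones. Since S100a6 counts chose the cells, its levels are given as a description, and the 10 genes of the limits were not tested.

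The blood came from C57BL/6 female mice of 4 months (young) and 24 months (old), with no other treatment or allele in the labels. Each age had 2 samples, and each sample was a pool of blood from 2 mice, so the pool is the replicate and the mice of a pool cannot be told apart. Cells were taken from a density gradient layer after red cell lysis and profiled with 10x Chromium 3′ chemistry. The pools held between 9521253 and 18658072 UMIs. S100a6-positive cells had a median of 3030.5, 2693.5, 2206 and 2555 UMIs in young 1, young 2, old 1 and old 2, against 2792.5, 2822, 2296 and 2643.5 in S100a6-zero cells. The libraries share 108 cell barcodes, of which 2 belong to S100a6-positive Cd4 T cells. All values of 4 pools below follow the order young 1, young 2, old 1, old 2.

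Cd4 T cells that have met their antigen leave a naive state kept by Lef1, Satb1 and Ccr7 and become effector or memory cells. These carry more adhesion and cytoskeleton proteins, such as the integrin chain Itgb1, the galectin Lgals1 and the small calcium-binding S100 proteins with their annexin partners, and homing receptors such as Cxcr3, Ccr2 and Cxcr6. Regulatory T cells, defined by Foxp3, also use part of this program and often express Ikzf2 (Helios) and Tnfrsf4 (OX40).

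S100a6-positive cells made up 18.3%, 31.6%, 84.3% and 66.7% of all Cd4 T cells within the limits (42 of 230, 54 of 171, 43 of 51 and 20 of 30 cells). The 95% exact binomial intervals, which cover counting error only, were 13.5 to 23.9%, 24.7 to 39.1%, 71.4 to 93.0% and 47.2 to 82.7%. Both old pools lay above both young pools, and the two-sided exact permutation test gave p = 0.333, the smallest that 2 pools against 2 allow. As a share of all cells of a pool, S100a6-positive Cd4 T cells stood at 1.08%, 1.40%, 0.926% and 0.914%, with overlapping intervals. S100a6-zero cells stood at 4.82%, 3.03%, 0.172% and 0.457% of all cells. Among all cells, then, the pools of the 2 ages lay apart by a wide margin in S100a6-zero cells and by little, with the old pools slightly lower, in S100a6-positive cells.

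Loose RNA in the suspension puts UMIs of a gene into droplets of other cell types, so the S100a6 share was set beside that in Fcer2a B cells, a naive follicular B cell type taken as cells with an Fcer2a UMI, at least 3 Cd79a UMIs and 0 Cd3 UMIs (2562 cells). Of these B cells, 19.9%, 15.1%, 55.6% and 29.8% had an S100a6 UMI, at a median depth of 2152, 2136, 2327 and 2371.5 UMIs. In young 1 the Cd4 T cell share was not above that of B cells. In young 2, old 1 and old 2 it was, with intervals that did not overlap. B cells may hold S100a6 RNA of their own, since the paper names S100a6 as a marker of its Crip1 and Zcwpw1 B cell clusters. How much of the B cell share was loose RNA was not tested. With at least 2 S100a6 UMIs required, the Cd4 T cell share was 9.57%, 14.6%, 66.7% and 53.3% and the B cell share 9.0%, 5.82%, 26.9% and 16.6%. With at least 3, the Cd4 T cell share was 7.39%, 10.5%, 47.1% and 40.0% and the B cell share 6.46%, 3.84%, 14.3% and 11.4%. In cells thinned to 1000 UMIs the share of Cd4 T cells was 10.7%, 25.4%, 52.9% and 90.0%. These were 8 of 75, 16 of 63, 9 of 17 and 9 of 10 cells (42 of 165 in all). Here the Cd4 T cell limits were applied again to the thinned counts, whereas B cells remained those chosen at full depth. Of these B cells, 10.8%, 7.80%, 32.7% and 18.1% had an S100a6 UMI after thinning. The intervals of the 2 cell types then overlapped in old 1 (27.8 to 77.0% against 29.2 to 36.4%) as well as in young 1. In old 2 the Cd4 T cell interval was 55.5 to 99.7%. At each of these limits the old pools stayed above the young pools in Cd4 T cells, and they did so in B cells as well.

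**Figure D1:**
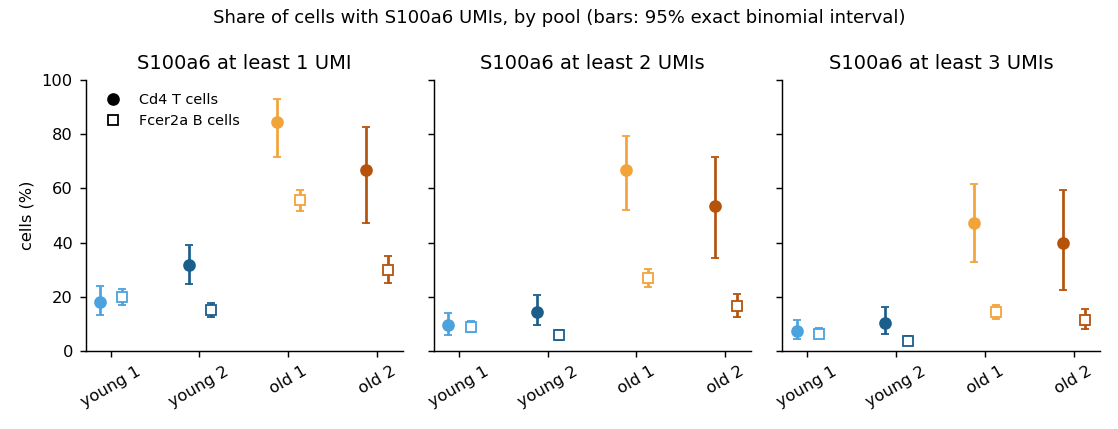
Share of cells (%) with at least 1, 2 or 3 S100a6 UMIs in each pool, for Cd4 T cells within the limits (filled circles) and Fcer2a B cells (open squares), with 95% exact binomial intervals. Both old pools lie above both young pools in both cell types, and in young 1 the Cd4 T cell share (18.3%) is close to that of B cells (19.9%).

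The S100a6 level in S100a6-positive cells was 946, 1226, 1827 and 1914 CPM, in CPM, or counts per 1000000 UMIs summed over the cells concerned in a pool. In Fcer2a B cells it was 366, 222, 1071 and 564 CPM. At the limit itself, 62 of the 159 cells had exactly 1 S100a6 UMI, and 26 had 2 and 71 had 3 or more. The 26 memory-associated adhesion and cytoskeleton genes, which do not include S100a6, summed in the young pools to 5573 CPM in the 305 cells just outside the limit (0 UMIs), 6474 CPM in the 49 just inside it (1 UMI), 9423 CPM at 2 UMIs and 14774 CPM at 3 or more. In the old pools the same sums were 9754, 12323, 13364 and 22340 CPM. The 19 naive T cell genes summed to 7577, 6182, 4803 and 4087 CPM in the young and 6738, 6162, 4243 and 3809 CPM in the old pools. Igfbp4, a gene of naive T cells, was at 561, 278, 334 and 39.4 CPM in young cells with 0, 1, 2 and 3 or more S100a6 UMIs. In the old pools it was at 548, 733, 0 and 8.28 CPM. Cells with 1 S100a6 UMI thus lay nearer to S100a6-zero cells than to those with 3 or more in both lists and both ages. No test was made of this gradient.

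**Figure D2:**
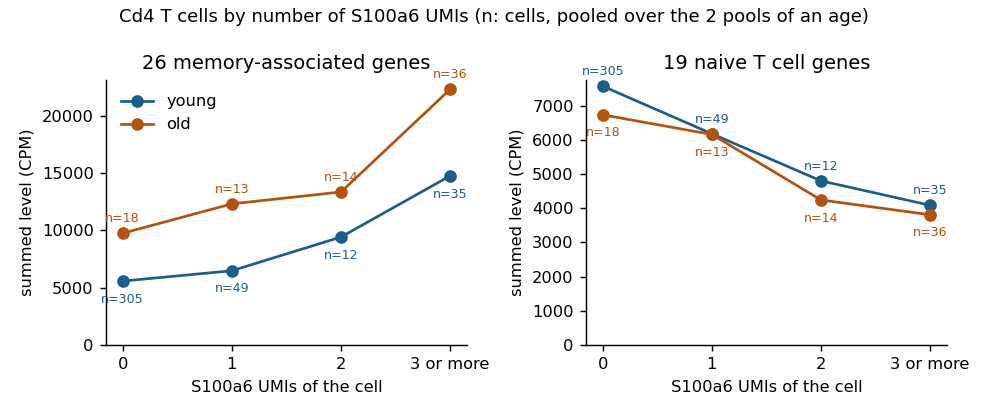
Summed level (CPM) of 26 memory-associated and 19 naive T cell genes in Cd4 T cells by the number of S100a6 UMIs of the cell, with the 2 pools of an age pooled and the number of cells beside each point. The memory-associated sum goes from 5573 to 14774 CPM in young and from 9754 to 22340 CPM in old cells, and the naive sum goes from 7577 to 4087 and from 6738 to 3809 CPM.

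To ask what else set S100a6-positive apart from S100a6-zero cells of the same pools, UMIs were summed per pool and group, and the sums were compared by the quasi-likelihood test of edgeR with the pool as a block and Benjamini-Hochberg adjustment. Of 1606 genes tested, 30 were higher and 17 lower in S100a6-positive cells (2.93% of genes called, 1.87% higher and 1.06% lower), and 264 had an unadjusted p under 0.05. In 39 of the 47 the difference had the same direction in all 4 pools, against 22.1% of all genes tested. S100a4, S100a10, S100a11, the annexin partner Anxa2, 3 of 4 homing receptors tested and 2 of 4 cytotoxic-type genes were called higher. Called lower were 6 of 16 genes of naive T cells, the receptor Ccr7 among them, and 8 of 77 ribosomal protein genes.

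S100a4, a close relative of S100a6, was at 266, 260, 587 and 644 CPM in S100a6-positive and at 13.6, 11.9, 191 and 99.5 CPM in S100a6-zero cells. It was higher in every pool, with a log2 difference of 3.56 (SE 0.35, adjusted p = 6.6e-05). The genes of S100a4 and S100a6 lie close together on chromosome 3 (GRCm38, 90603771 to 90606045 and 90612882 to 90624181), and S100a10 and S100a11 lie on the same chromosome in a span of 2.96 Mb. S100a4 overlaps another coding gene of its strand in the annotation. S100a11 was at 526, 775, 1175 and 1307 CPM against 186, 146, 861 and 531 CPM (log2 difference 1.48, SE 0.22, adjusted p = 0.0024). S100a10, which pairs with Anxa2 at membranes, was at 967, 1181, 2306 and 1435 CPM against 499, 328, 718 and 895 CPM (1.22, SE 0.18, adjusted p = 0.0024). Anxa2 itself was at 147, 121, 479 and 239 CPM against 23.3, 14.9, 0 and 66.3 CPM (2.71, SE 0.37, adjusted p = 0.0015). All 3 were higher in each of the 4 pools.

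Itgb1, the β1 integrin chain, was at 238, 260, 399 and 405 CPM in S100a6-positive and at 54.4, 92.4, 383 and 232 CPM in S100a6-zero cells (log2 difference 1.31, SE 0.27, adjusted p = 0.020). In old 1 its levels were nearly equal. Lgals1, a secreted galectin, was at 974, 1016, 2415 and 920 CPM against 295, 390, 622 and 1260 CPM (1.16, SE 0.25, adjusted p = 0.025), and it was lower in S100a6-positive than in S100a6-zero cells of old 2. A UMI was found in 44.0% of S100a6-positive cells for Itgb1 and in 73.6% for Lgals1, against 8.35% and 22% of Fcer2a B cells. In S100a6-zero cells these shares were 12.1% and 37.8%. For Lgals1 in old 2 the S100a6-zero share was the higher, at 70% against 60% of S100a6-positive cells. Of the 26 memory-associated genes, 22 were tested, 20 of the estimates lay above 0 and 10 were called, all higher. Their median log2 difference was 0.81, against 0.00 over all genes tested. This list, like the others used here, was chosen with earlier results of these data known, so its counts are a description. Besides those above, the called members were Vim (0.83), Crip1 (0.77), Ly6a (0.74) and Selplg (0.80), which makes the selectin ligand PSGL-1. Cd44, a classical memory receptor, had a UMI in 20.1% of S100a6-positive, 6.50% of S100a6-zero and 12.2% of Fcer2a B cells and was too low to be tested.

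**Figure D3:**
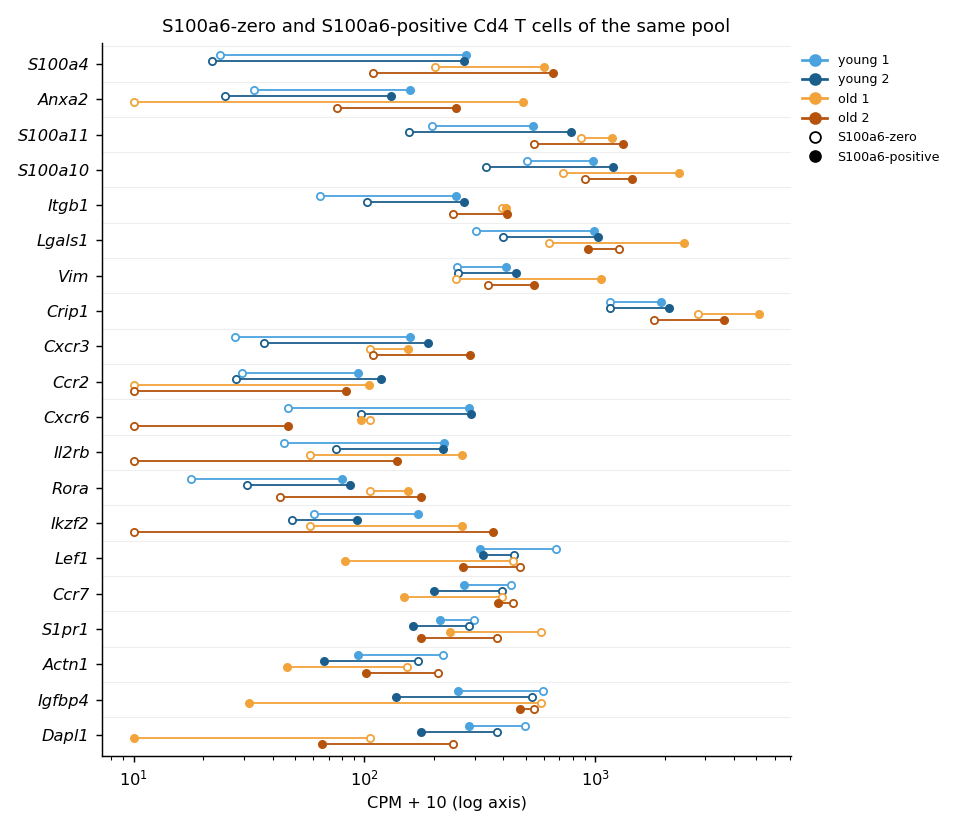
Level of 20 genes (CPM + 10, log axis) in S100a6-zero (open) and S100a6-positive (filled) Cd4 T cells of each pool, joined by a line. By edgeR the upper 14 genes were higher in S100a6-positive cells, although Cxcr6 in old 1 and Lgals1 in old 2 lay the other way, and the lower 6 genes were lower.

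Homing receptors were among the widest differences. Cxcr3, the receptor for interferon-induced chemokines on Th1-type cells, was at 147, 178, 145 and 276 CPM in S100a6-positive and at 17.5, 26.8, 95.7 and 99.5 CPM in S100a6-zero cells (log2 difference 2.39, SE 0.37, adjusted p = 0.0026). Ccr2, which guides cells to inflamed tissue, was at 84.1, 108, 94.3 and 73.6 CPM against 19.4, 17.9, 0 and 0 CPM (2.29, SE 0.43, adjusted p = 0.013). Cxcr6, a receptor of tissue-homing effector cells, was at 273, 279, 87.0 and 36.8 CPM against 36.9, 86.4, 95.7 and 0 CPM (2.01, SE 0.33, adjusted p = 0.0039), with old 1 in the other direction. Ccr7, which brings naive cells into lymph nodes, was at 259, 191, 138 and 368 CPM against 423, 384, 383 and 431 CPM and was lower (-0.92, SE 0.19, adjusted p = 0.020). These are all 4 of the 15 chemokine receptor genes on the list that passed the filter on low counts.

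Of the T helper lineage factors, 4 of 20 were tested and 2 were called higher. Rora, a factor of Th17-type and innate-like lymphocytes, was at 70.1, 76.2, 145 and 166 CPM against 7.77, 20.9, 95.7 and 33.2 CPM (log2 difference 2.02, SE 0.46, adjusted p = 0.031). Id2, which supports effector fate, was at 897, 1035, 674 and 570 CPM against 249, 393, 909 and 497 CPM (1.05, SE 0.26, adjusted p = 0.042), with old 1 in the other direction. Gata3 (1.11, adjusted p = 0.14) and Maf (1.76, adjusted p = 0.10) did not pass. Bcl6, the factor of follicular helper cells, had 0 UMIs in the 159 cells. Il2rb, a chain of the IL-2 and IL-15 receptor, was at 210, 210, 254 and 129 CPM against 34.9, 65.5, 47.8 and 0 CPM (2.04, SE 0.31, adjusted p = 0.0024). Nkg7, a cytotoxic granule protein, was at 610, 508, 972 and 129 CPM against 103, 203, 383 and 133 CPM (1.66, SE 0.25, adjusted p = 0.0024), with old 2 slightly lower. The chemokine Ccl5 was at 2383, 3341, 3074 and 2521 CPM against 654, 1233, 2153 and 166 CPM (1.51, SE 0.25, adjusted p = 0.0037) and was higher in all 4 pools. In old 2, however, 1 cell held 73.0% of the Ccl5 UMIs. A Ccl5 UMI was found in 48.4% of S100a6-positive, 35.3% of S100a6-zero and 30.2% of Fcer2a B cells.

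Other genes called higher with 1 direction in all pools were Bcl2a1b (log2 difference 1.80), of a Bcl2 family whose copies are nearly identical so that its reads are uncertain, Cdc42ep3 (1.68), a Cdc42 effector, and Prr13 (1.53), all with adjusted p between 0.0015 and 0.035 by edgeR. Ikzf2 was at 161, 82.6, 254 and 350 CPM in S100a6-positive and at 50.5, 38.7, 47.8 and 0 CPM in S100a6-zero cells (1.64, SE 0.38, adjusted p = 0.031). It was 1 of 4 tested genes of the regulatory T cell list.

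The naive genes lay the other way. All 16 tested of the 19 listed had estimates below 0, with a median of -0.76, and 6 were called lower. Lef1, a factor of naive T cells, was at 308, 318, 72.5 and 258 CPM in S100a6-positive and at 668, 435, 431 and 464 CPM in S100a6-zero cells (log2 difference -1.05, SE 0.21, adjusted p = 0.015). Igfbp4 was at 245, 127, 21.8 and 460 CPM against 586, 521, 574 and 531 CPM (-1.65, SE 0.32, adjusted p = 0.014). Actn1, an actin crosslinker, was at 84.1, 57.2, 36.3 and 92.0 CPM against 210, 161, 144 and 199 CPM (-1.51, SE 0.27, adjusted p = 0.0069). These 3 were lower in each pool. Dapl1 (-1.23, adjusted p = 0.020) and S1pr1 (-0.93, adjusted p = 0.024), the receptor for exit from lymph nodes, were also lower in each pool, as was Pik3ip1 (-1.04, adjusted p = 0.048), an inhibitor of PI3 kinase outside the list. Satb1 (-0.66, adjusted p = 0.11) and Tcf7 (-0.53, adjusted p = 0.18) did not pass.

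Of 80 cytoplasmic ribosomal protein genes, 77 were tested, 75 estimates lay below 0 and 8 were called lower, with a median log2 difference of -0.35. Their summed level was 308752, 292384, 242356 and 315195 CPM in S100a6-positive and 373067, 360440, 333062 and 327309 CPM in S100a6-zero cells. Among those called were Rpl36a (-0.61), Rps29 (-0.57), Rpl35 (-0.53) and Rpl22l1 (-0.53), with adjusted p between 0.017 and 0.040 by edgeR. Under 14 other settings of the fit these calls were kept in 7, 5, 4 and 4. Ribosomal protein genes have many near-identical processed copies, so their reads are uncertain. No gene was called among 17 tested genes of T cell receptor signaling, 72 of oxidative phosphorylation, 19 of MHC class I and antigen processing, 9 interferon-stimulated genes or 8 costimulatory and inhibitory receptors.

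Markers of other cells were measured beside these differences. The 12 B cell markers summed to 5635, 1740, 1805 and 847 CPM in S100a6-positive and to 1510, 1516, 2105 and 3150 CPM in S100a6-zero cells, against 46893 to 53513 CPM in Fcer2a B cells. None of the 6 B cell markers tested was called. The 14 monocyte markers summed to 1227, 572, 993 and 478 CPM against 369, 492, 574 and 796 CPM, with Cd14 and Fcgr3 at 0 in S100a6-positive cells, and Ccr2 was the called member of this list. The 7 platelet markers summed to 7.01, 0, 653 and 184 CPM against 0, 0, 526 and 298 CPM, and 1 was tested and not called. The 7 red cell markers summed to 40296, 90537, 78803 and 11446 CPM against 23729, 78696, 21531 and 11972 CPM, and 5 were tested with 0 called. Their part in the differences was not tested. The old pools give little weight here, with 8 and 10 S100a6-zero cells. With the young pools alone, a fit added after seeing the data, 96 genes were higher and 121 lower, all 47 genes among them. Without young 1 and without young 2, only 39 and 40 of the 47 passed the filter on low counts, and 5 and 6 remained called. Without old 2 the count was 139.

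The next question was which genes differed with age inside S100a6-positive Cd4 T cells. Of 2607 genes tested, 8 rose and 2 fell (0.384% of genes called, 0.307% higher and 0.0767% lower; edgeR's quasi-likelihood test, Benjamini-Hochberg adjustment), and 131 had an unadjusted p under 0.05. All 10 had both old pools on 1 side of both young pools, as did 32.6% of all genes tested. DESeq2 called 2 genes, of which 1 was among the 10. Of the 10, Anxa2, Ly6a, Prr13, S100a4 and Cxcr6 were also called between S100a6-positive and S100a6-zero cells, which is 50% of the age calls and 10.6% of the others. That comparison called 2.93% of its 1606 genes, and both use the same sums of S100a6-positive cells, so they are not independent. Anxa2, Ly6a, Prr13 and S100a4 were higher in both, whereas Cxcr6 was higher than in S100a6-zero cells and fell with age.

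Among the adhesion and calcium-binding genes, S100a4 rose from 266 and 260 CPM in the young to 587 and 644 CPM in the old pools (log2 difference 1.12, SE 0.25, adjusted p = 0.026). Anxa2 rose from 147 and 121 to 479 and 239 CPM (1.46, SE 0.32, adjusted p = 0.025). With at least 2 S100a6 UMIs required, the estimates were 0.75 for S100a4 and 1.15 for Anxa2, and neither passed. In Fcer2a B cells S100a4 was at 22.4, 26, 57.3 and 15.6 CPM and Anxa2 at 36.6, 17.5, 83.8 and 23.4 CPM, with overlapping ages, although an S100a4 UMI was found in 4.56%, 3.57%, 9.78% and 5.12% of B cells, more often in both old pools. Without old 1 the Anxa2 estimate was 0.71 (adjusted p = 0.99). Capg, a capping protein of actin filaments, rose from 126 and 95.3 to 428 and 221 CPM (1.59, SE 0.34, adjusted p = 0.020), with 364 to 481 CPM in Fcer2a B cells of either age, and its estimate without old 1 was 0.87 (adjusted p = 0.99). For the marker genes Itgb1 and Lgals1 the age estimates did not pass: Itgb1 was at 238, 260, 399 and 405 CPM (0.59, SE 0.27, adjusted p = 0.92) and Lgals1 at 974, 1016, 2415 and 920 CPM (0.72, SE 0.27, adjusted p = 0.58). The pools did not overlap for Itgb1 and did for Lgals1. The Lgals1 estimate was -0.24 without old 1. Of the 24 tested memory-associated genes, 20 estimates lay above 0, with a median of 0.54 against 0.00 over all genes, and 3 were called, all higher. S100a10 (0.74, adjusted p = 0.31), S100a11 (0.83, adjusted p = 0.15), Vim (0.90, adjusted p = 0.15) and Crip1 (1.05, adjusted p = 0.064) were among those that did not pass.

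Several genes that rose were also higher in old Fcer2a B cells. Ctla2a, a cathepsin inhibitor, rose from 98.1 and 69.9 to 363 and 202 CPM (log2 difference 1.78, SE 0.36, adjusted p = 0.012), and in B cells it was at 2.75, 8.49, 350 and 221 CPM. Its gene overlaps other coding genes on the same strand and has a close copy, so its reads are uncertain. Cd9, a tetraspanin of platelets and other cells, rose from 84.1 and 44.5 to 239 and 221 CPM (1.77, SE 0.39, adjusted p = 0.025), and in B cells it was at 19.2, 18.0, 176 and 140 CPM. Ly6a (Sca-1), an interferon-responsive surface protein, rose from 259 and 483 to 1073 and 975 CPM (1.37, SE 0.25, adjusted p = 0.012), with 478, 448, 898 and 717 CPM in B cells. Ifi27l2a, an interferon-stimulated gene, rose from 932 and 1200 to 2654 and 2576 CPM (1.21, SE 0.24, adjusted p = 0.012), with 651, 553, 1337 and 698 CPM in B cells. Prr13 rose from 308 and 356 to 703 and 847 CPM (1.10, SE 0.24, adjusted p = 0.025), with 219 to 286 CPM in B cells. Ctla2a, Cd9, Ly6a and Ifi27l2a thus had both old pools above both young pools in both cell types. With the cells carrying Pf4 or Ppbp UMIs left out, the estimate of Cd9 was 0.93, and those of Ctla2a (1.98), Ly6a (1.37) and Ifi27l2a (1.44) were as large or larger. Without cells with any Cd79a or Lyz2 UMI, Cd9 was at 0.36, Ly6a at 1.26 and Ifi27l2a at 0.82. Without old 1 the estimate of Ctla2a was 1.15 (adjusted p = 0.87). The part of loose RNA in these levels was not tested.

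**Figure D4:**
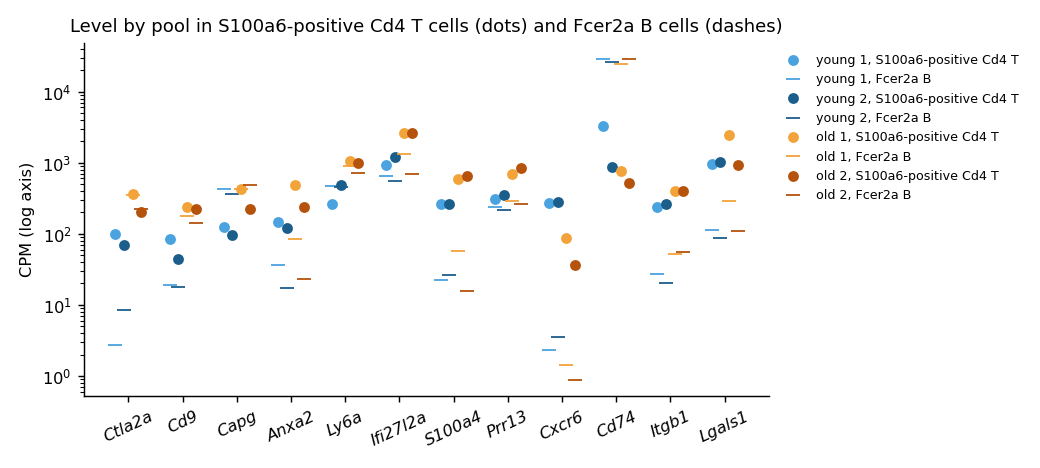
Level (CPM, log axis) in each pool of the 10 genes called with age and of Itgb1 and Lgals1, in S100a6-positive Cd4 T cells (dots) and in Fcer2a B cells (dashes). S100a4, Anxa2 and Prr13 lie above the B cell level in every pool, whereas Ctla2a and Cd9 reach a like level in old B cells (140 to 350 CPM).

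Cxcr6 fell from 273 and 279 to 87.0 and 36.8 CPM (log2 difference -2.02, SE 0.39, adjusted p = 0.012). Behind these levels were 39, 44, 12 and 2 UMIs, and a Cxcr6 UMI was found in 11 of 42, 13 of 54, 7 of 43 and 1 of 20 cells. The other chemokine receptors tested, Cxcr3 (0.11), Ccr2 (-0.22) and Ccr7 (-0.15), each had adjusted p = 0.99 by edgeR. Cd74, the invariant chain of MHC class II and the most abundant B cell marker on the list, fell from 3238 and 876 to 769 and 515 CPM (-1.70, SE 0.34, adjusted p = 0.012). In young 1, 1 cell held 308 of 462 Cd74 UMIs (66.7%), and without its Cd74 UMIs the level was 1079 CPM. Without young 1 the Cd74 estimate was -0.48 (adjusted p = 1.00 by edgeR), so that this call rested on 1 pool.

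Naive genes gave no call with age, and the 19 listed summed to 5628, 4706, 3691 and 5981 CPM, with old 2 the highest. In 4 of the 14 tested both old pools lay on 1 side of both young pools. Of the 14 estimates, 10 lay below 0, with a median of -0.17. The lowest belonged to Satb1, at 224, 191, 43.5 and 110 CPM (log2 difference -1.78, SE 0.43, adjusted p = 0.059), and Lef1, at 308, 318, 72.5 and 258 CPM (-1.34, SE 0.38, adjusted p = 0.15). Of 20 MHC class I and antigen processing genes, 19 estimates lay above 0 with a median of 0.28, and of 15 interferon-stimulated genes 13 did with a median of 0.34, with 0 and 1 called. Ribosomal protein genes had 73 of 78 estimates below 0 with a median of -0.20 and 0 called. The 80 listed summed to 308752, 292384, 242356 and 315195 CPM, so that old 2 lay above both young pools. In 14 of the 78 both old pools lay on 1 side of both young pools, against 32.6% of all genes tested. Among 76 oxidative phosphorylation, 19 T cell receptor signaling, 8 costimulatory and 8 apoptosis or cell cycle inhibitor genes 0 were called. Bcl2, a survival factor, was at 449, 375, 761 and 718 CPM (0.77, adjusted p = 0.22).

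The count of age calls moved with the pools and the cells kept. Without old 1, old 2, young 1 or young 2, 19, 50, 6 and 8 genes were called, of which 4, 10, 5 and 4 were among the 10. Each of these fits leaves 1 pool in an age, which is assumed to vary like the pools of the other age. Exactly 1 S100a6 UMI was held by 49 of the 96 young and 13 of the 63 old S100a6-positive cells. With at least 2 required, S100a4, Anxa2, Capg, Ctla2a, Cd9 and Prr13 were at 0.75, 1.15, 1.13, 1.06, 1.34 and 0.88. Ly6a was then at 1.30, Ifi27l2a at 1.16, Cxcr6 at -2.07 and Cd74 at -2.12. The part of this mix of cells in the age differences was not tested. Pf4 or Ppbp, both platelet genes, had a UMI in 0, 0, 17 and 6 of the S100a6-positive cells, and when these 23 cells were left out 0 genes were called and 102 had an unadjusted p under 0.05, with all 10 estimates in the same direction. Most kept their size, such as Cxcr6 (-1.99), Prr13 (1.14) and Capg (1.63), whereas Cd9 went from 1.77 to 0.93, S100a4 from 1.12 to 0.81 and Anxa2 from 1.46 to 1.21.

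The gene content of S100a6-positive cells was also given as the share of cells with a UMI, beside that in Fcer2a B cells. Ikzf2 or Tnfrsf4, both typical of regulatory T cells, was found in 16.7%, 14.8%, 53.5% and 55.0% of S100a6-positive cells, although Foxp3 had 0 UMIs in all of them by the limits. Thinned to 1000 UMIs, these shares were 16.7%, 5.56%, 34.9% and 35.0%. In Fcer2a B cells the unthinned share stayed between 0.292% and 1.20%, and in S100a6-zero cells it was 5.85%, 10.3%, 37.5% and 10.0%. Both old pools lay above both young pools, with exact permutation p = 0.333. Without cells of either transcript in both groups (49 of them S100a6-positive), S100a6-positive cells made up 16.5%, 30.5%, 80.0% and 50.0% of the remaining Cd4 T cells. Ikzf2 itself was at 161, 82.6, 254 and 350 CPM (log2 difference with age 1.16, SE 0.35, adjusted p = 0.22 by edgeR), and of the 12 regulatory T cell genes 5 were tested, all with estimates above 0, and Capg was called.

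The inhibitory receptor Pdcd1 (PD-1) had a UMI in 0 of 42 and 0 of 54 young S100a6-positive cells. Taking a count of 0 to allow 3, the shares there could be up to 7.14% and 5.56%, and the 95% exact binomial intervals reach 8.41% and 6.60%. In the old pools it had one in 5 of 43 (11.6%) and 5 of 20 (25%) cells, against 0 of 8 and 0 of 10 old S100a6-zero cells, which allows up to 37.5% and 30%, and 0 of 685 and 0 of 332 old Fcer2a B cells. Young S100a6-zero cells had one in 3 of 188 and 0 of 117, and young Fcer2a B cells in 1 of 789 and 1 of 756. Thinned, the old shares were 4.65% and 15.0%, and exact permutation p was 0.333. Tnfsf8, the CD30 ligand, was found in 16.7%, 24.1%, 37.2% and 30% of cells, in 13.3%, 9.40%, 25% and 30% of S100a6-zero cells and in 0.634%, 0.265%, 1.17% and 3.31% of Fcer2a B cells, so that the old pools were higher in all 3 groups. Cxcr3 was found in 26.2%, 25.9%, 23.3% and 40.0% of cells and in 0.380% to 3.61% of B cells. In S100a6-zero cells it was found in 3.72%, 5.98%, 25% and 20%, so that in old 1 the S100a6-zero share was slightly higher. The innate-type receptor Klrb1c was found in 9.52%, 7.41%, 2.33% and 0% of cells (0 of 20 in old 2, with an exact interval up to 16.8%), against 1.01%, 1.32%, 0% and 0% of B cells. Its shares in S100a6-zero cells were 2.13%, 5.13%, 0% and 0%. Gzmk, a granzyme, was found in 7.14%, 1.85%, 14% and 10.0% of cells, with overlapping intervals, and in at most 0.146% of B cells. S100a6-zero cells had a Gzmk UMI in 0%, 0.855%, 12.5% and 0%. Ly6a was found in 42.9%, 51.9%, 79.1% and 90.0%, and its shares of 52.5%, 53.4%, 79.1% and 67.2% in Fcer2a B cells were at or above those of every pool but old 2. Among S100a6-zero cells the Ly6a shares were 27.1%, 30.8%, 87.5% and 70%. Lef1 or Ccr7 was found in 64.3%, 63.0%, 37.2% and 40.0% of S100a6-positive and in 84.6%, 76.1%, 62.5% and 70.0% of S100a6-zero cells. Fcer2a B cells, which express Ccr7 themselves, had one in 51.6%, 49.1%, 38.7% and 55.7%, so that both old shares in S100a6-positive cells were not above those of B cells.

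**Figure D5:**
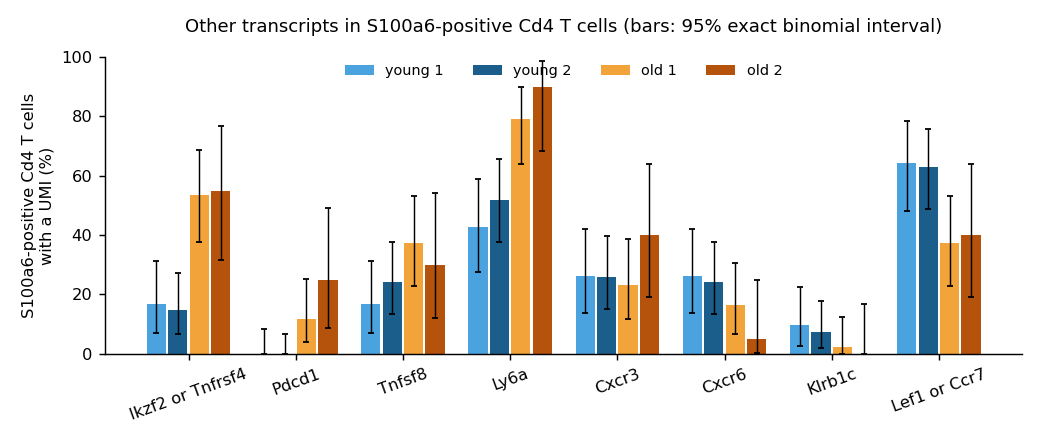
Share (%) of S100a6-positive Cd4 T cells with a UMI of each transcript in the 4 pools, with 95% exact binomial intervals. Ikzf2 or Tnfrsf4 is found in 14.8 to 16.7% of young and 53.5 to 55.0% of old cells, Pdcd1 in 0% of young and 11.6 to 25% of old cells, and Lef1 or Ccr7 in 63.0 to 64.3% of young and 37.2 to 40.0% of old cells.

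Within the 159 cells, Ikzf2 had a UMI in 35, Cxcr3 in 43 and Cxcr6 in 32. Cxcr3 and Cxcr6 were found together in 17 cells, and Ikzf2 and Cxcr6 in 2. Itgb1 was found in 70 and S100a4 in 56 cells, with 38 in common, and both occurred beside Ikzf2 (24 and 22 cells) and beside Cxcr3 (24 and 22 cells). The limits on S100a6 and Foxp3 thus took in cells with regulatory-type and cells with Cxcr3 and Cxcr6 transcripts, as well as cells with Lef1 (61 of 159, 16 of them also with Itgb1). These counts depend on the depth of each cell and were not tested. Il5, Il17a and Il21 were not analysed here, and Il10 and Il13 had 0 UMIs in the 159 cells.

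Whether the age difference itself differed between S100a6-positive and S100a6-zero Cd4 T cells was tested with an interaction term in edgeR. Of 2274 genes, 0 were called (0% of genes called), 133 had an unadjusted p under 0.05, and DESeq2 also called 0. For S100a4, S100a6-zero cells were at 13.6, 11.9, 191 and 99.5 CPM, and the interaction estimate was -1.93 (adjusted p = 0.84). For Cxcr6 it was -1.55 (adjusted p = 0.94) and for Ly6a -0.40 (adjusted p = 0.94). With 8 and 10 S100a6-zero cells in the old pools, such differences had little data behind them, and the 10 age genes are not shown to be particular to S100a6-positive cells.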

How the data were processed

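UMI counts per gene and cell were deposited for peripheral blood of 2 young and 2 old pools. The authors made these counts with Cell Ranger on mm10, combined the duplicates of each age, and kept cells in Seurat 2.3.0 with over 500 and under 4000 genes and less than 10% of UMIs from mitochondrial genes. Per-sample columns outside these pools numbered 0. The members, gene lists and named genes were chosen with earlier results of these data known. Named genes were up to 12 per direction with the largest called differences whose pools lay apart, the marker genes, and of each of 20 lists the 4 highest in CPM and any called. Other genes named were chosen after their values were seen.

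UMIs were summed per pool and group and tested with edgeR 4.0.16 (quasi-likelihood, TMM, Benjamini-Hochberg threshold 0.05). Age was fitted on 4 sums of S100a6-positive cells, over genes with a UMI in at least 10% of these cells in each age. S100a6-positive against S100a6-zero cells and the interaction were fitted on 8 sums with the pool as a block and filterByExpr. DESeq2 1.42.0 was an alternative. Shares were tested with two-sided exact permutation tests over the pools (6 labellings). Doublets were not called, and Cd79a and Lyz2 limits stood in for this. On data simulated from the age comparison (2614 genes), 67% of 4-fold and 14% of 2-fold changes were recovered. For S100a6-positive against S100a6-zero cells (1677 genes), 100% of 87 and 83.1% of 89 changed genes left by the filter were, with 6 false calls. Apart from the changed genes, all pools were simulated with the same gene proportions. Python 3.11.15, numpy 2.4.6, scipy 1.17.1 and R 4.3.3 were used. Gene positions are from GENCODE on GRCm38, the assembly behind mm10.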

Additional observations from a re-analysis of the deposited data

Results flagged for a closer look

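Cd74, the invariant chain of MHC class II, differed between S100a6-positive and S100a6-zero Cd4 T cells in opposite directions in the 2 ages. It was at 3238 and 876 CPM in S100a6-positive against 676 and 748 CPM in S100a6-zero cells of young 1 and young 2, and at 769 and 515 against 813 and 1724 CPM in old 1 and old 2. The interaction estimate was -2.06 on the log2 scale, and the test of this difference did not pass (adjusted p = 0.64, edgeR's quasi-likelihood test). In young 1, 1 S100a6-positive cell held 308 of 462 Cd74 UMIs, and without these the level was 1079 CPM.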

How the results depend on the processing

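The S100a6-positive share of Cd4 T cells was higher in old pools by 50.6 percentage points, and by 41.7 to 59.4 points with 1 pool left out. With all cells of a pool as the denominator the difference was -0.318 points. The count of 10 age genes became 0 with at least 2 S100a6 UMIs, 0 with thinned cells, 0 without any Cd79a or Lyz2 UMI, 0 under filterByExpr, 0 without cells with Pf4 or Ppbp UMIs (chosen after seeing the data), 2 with DESeq2, 5 without cells with Ikzf2 or Tnfrsf4 UMIs, 36 with no filter on low counts, and 6 to 50 with 1 pool left out. With the replicate number as a block it was 20. The numbers did not pair the pools (correlation of deviations -0.031 over 2614 genes). Unadjusted p was under 0.05 for 94, 22, 80, 136 and 102 genes in the 5 settings that gave 0. The age estimate of Cd74 was 0.83 with thinned cells. That of Lgals1 ranged from -0.24 (without old replicate 1) to 1.16 (without old replicate 2) with 1 pool left out, and the latter passed the test. The cause was not tested. The other age genes kept their direction wherever they were tested, but not their size: Ly6a was at 0.30 and S100a4 at 0.27 with thinned cells, Cd9 at 0.36 without any Cd79a or Lyz2 UMI, and Ifi27l2a at 0.43 without cells with Ikzf2 or Tnfrsf4 UMIs.

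The count of 47 genes between S100a6-positive and S100a6-zero cells became 88 with at least 2 S100a6 UMIs, 1 with thinned cells (138 genes tested), 23 without any Cd79a or Lyz2 UMI, 11 without cells with Ikzf2 or Tnfrsf4 UMIs, 17 with DESeq2 (all 17 among the 47), 217 with young pools only (chosen after seeing the data), and 5 to 139 with 1 pool left out. Without the replicate block it was 36, with 29 higher and 7 lower. None of the 47 changed direction over 570 refitted estimates, which come from the same pools. The call was kept in 343 of these and not kept in 227. The latter include DESeq2 fits that gave no adjusted p, such as those of Ccr2, Bcl2a1b and Cdc42ep3. S100a4, Anxa2 and Prr13 kept their call in all 12, 10 and 13 in which they were tested, whereas Limd2 and Rpl28 kept theirs in 3 of 14. The interaction count of 0 became 6 without any Cd79a or Lyz2 UMI, 2 with DESeq2 size factors, 27 with no filter on low counts, and 1 to 14 with 1 pool left out. Depth limits all of this most in the old pools, where S100a6-zero cells held 20900 and 30155 UMIs in all.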
